A study of Mus musculus with 12 samples.

Results

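The transcripts described here encode the machinery that copies DNA and the regulators that take a cell from the first growth phase (G1) into DNA synthesis (S phase). They are 47 genes listed by symbol, from the origin licensing factors through the replicative helicase, polymerases, sliding clamp and nucleotide enzymes to the E2F and cyclin E regulators. All 47 were found among the 50643 genes of the deposited table, and all 47 were among the 16694 genes with enough counts to be tested. The lowest count of any of them in any library was 58. The choice of genes did not use measured values, but it was made with earlier results of these data known.

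RNA was sequenced from natural killer (NK) cells, lymphocytes of innate immunity that destroy infected or altered cells, enriched from the spleens of C57BL/6 mice by negative selection. This method takes away other cells and leaves the NK cells uncaptured. Of the 12 libraries, 3 were from unchallenged wild-type mice, 3 from wild-type mice challenged with Listeria, 3 from unchallenged Mirc11-/- mice and 3 from challenged Mirc11-/- mice. Mirc11-/- mice, here called knockout, lack a microRNA cluster, and the labels name no cell type or promoter that would restrict the deletion. The sources used here give no age or sex of the mice and no dose, route or length of the challenge.

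DNA is copied once per cell division because origins are licensed in G1 and fired in S phase. The origin recognition complex, Cdc6 and Cdt1 load the ring of Mcm2 to Mcm7 onto DNA, and Mcm10, Cdc45 and the GINS complex turn it into an active helicase. Transcription of most of these genes is controlled by E2F factors, which are held back by the retinoblastoma protein until cyclin-dependent kinases phosphorylate it. Most NK cells of a resting spleen are outside the cycle.

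Library totals ran from 17624530 to 23665679 counts. Levels are counts scaled to the library total (CPM), and 1 count was worth 0.0423 to 0.0567 CPM. The microRNA genes Mir23a, Mir27a and Mir24-2 of the deleted cluster had 0 counts in every library, so they check nothing about the genotype labels. Gm26532, a noncoding transcript beside them chosen after its values were seen, stood at 2.34 to 4.88 CPM in the 6 wild-type libraries and at 0.113 to 0.498 CPM in unchallenged knockout. In challenged knockout libraries it stood at 0.887, 0.984 and 2.7 CPM, and the last value, from replicate 3, lay among the wild-type ones. Sex-linked transcripts also differed. Xist, the RNA of the inactive X chromosome, measured 1154 to 2025 CPM in wild-type, 0.362 to 1.08 CPM in unchallenged knockout and 526 to 1027 CPM in challenged knockout libraries. The sum of 4 Y-linked transcripts was 1.12 to 1.69 CPM in challenged wild-type, 284 to 361 CPM in unchallenged knockout and 122 to 220 CPM in challenged knockout libraries. In unchallenged wild-type libraries it ran from 2.97 CPM to 117 CPM, the latter in replicate 4. Genotype, and challenge within the knockout, can therefore not be told apart from the sex-linked make-up of the libraries. The number of the 47 genes called in each comparison is also given without unchallenged wild-type replicate 4 and challenged knockout replicate 3.

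In wild-type mice the challenge raised almost the whole set. By the quasi-likelihood F test of edgeR, with p-values adjusted over all tested genes and a call at an adjusted p below 0.05, 46 of 47 genes rose, 0 fell and Gins2 did not pass. Of all tested genes, 32.4% rose and 30.9% fell. The median log2 change over the 47 genes was 1.17, with a range of 0.19 to 2.21, against a median of -0.01 over all tested genes. A rise of at least 2-fold was called for 32 of the 47 and for 13.5% of all tested genes. For 44 of them every challenged library lay above every unchallenged one, which held for 30.1% of all tested genes. Without the unchallenged wild-type replicate 4 the count was 45, and without both libraries named above it was 44.

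The summed level of the 47 transcripts was 1992, 2056 and 1866 CPM in unchallenged wild-type libraries (replicates 2, 3 and 4) and 3801, 3815 and 4114 CPM in challenged ones (replicates 1, 2 and 3). In the knockout it was 2201, 2188 and 2285 CPM without challenge and 3070, 2876 and 2976 CPM after it. The groups did not overlap. Their order was unchallenged wild-type, unchallenged knockout, challenged knockout, challenged wild-type. In whole-sample RNA, fewer cells of a type and less RNA per cell cannot be told apart. A list of 10 NK cell markers, Ncr1 and Klrb1c among them, summed to 6856 to 7816 CPM in unchallenged wild-type libraries. They summed to 3958 to 4052 CPM in challenged wild-type, 7284 to 7484 CPM in unchallenged knockout and 5237 to 5823 CPM in challenged knockout libraries. All 10 were detected. With challenge 8 of 10 fell in wild-type, while Prf1, which encodes perforin, rose (log2 0.60), and 9 of 10 fell in knockout. The median log2 change over the 10 was -1.55 in wild-type and -0.49 in knockout. Gzma, with the highest level of the 10, did not pass in wild-type (log2 0.03) and stood at 1571 to 1671 CPM in challenged libraries. The wild-type sum therefore understates the fall of Klrb1c (log2 -2.60) and Ncr1 (-1.98).

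Markers of other cells moved as well. The 10 erythroid markers, genes of red blood cell precursors, summed to 8796 to 10131 CPM in unchallenged wild-type, 1317 to 1776 CPM in challenged wild-type, 27736 to 30694 CPM in unchallenged knockout and 15401 to 18693 CPM in challenged knockout libraries. All 10 were higher in unchallenged knockout than in unchallenged wild-type libraries. With challenge 9 of 10 fell in each genotype, and Klf1 did not pass in either. Neutrophil markers, 9 genes, summed to 67.3 to 76.8, 1563 to 1861, 463 to 479 and 786 to 1210 CPM in the same order of groups. With challenge all 9 rose in wild-type, whereas in knockout 6 rose and 3 fell, Ltf (log2 -0.65), Camp (-0.77) and Ngp (-0.41). After challenge 7 of the 9 were lower in knockout than in wild-type libraries and 2 were higher. B cell markers, 8 genes, summed to 1370 to 1564, 1777 to 1854, 979 to 1020 and 1466 to 1571 CPM. Macrophage and monocyte markers, 8 genes, were highest in challenged wild-type libraries (1315 to 1484 CPM). T cell markers, 9 genes, were lowest there (187 to 192 CPM), and germinal centre and plasma cell markers, 9 genes, ran from 370 CPM in an unchallenged wild-type library to 561 CPM in a challenged knockout one. Markers of myeloid progenitors, 6 genes, summed to 196 to 228 CPM in unchallenged wild-type, 215 to 220 CPM in challenged wild-type, 150 to 157 CPM in unchallenged knockout and 174 to 196 CPM in challenged knockout libraries. Most of that sum was Kit, a receptor of early progenitors, which fell with challenge in wild-type from 182 to 216 CPM to 158 to 160 CPM, whereas the other 5, Mpo (log2 3.25) and Elane (3.37) among them, rose. Of the 6, 5 were also higher in unchallenged knockout than in unchallenged wild-type libraries, with a median log2 difference of 2.76, and Kit was lower (-0.94). No marker was at 0 in every library, and the part of these cells in the results was not tested.

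**Figure D1:**
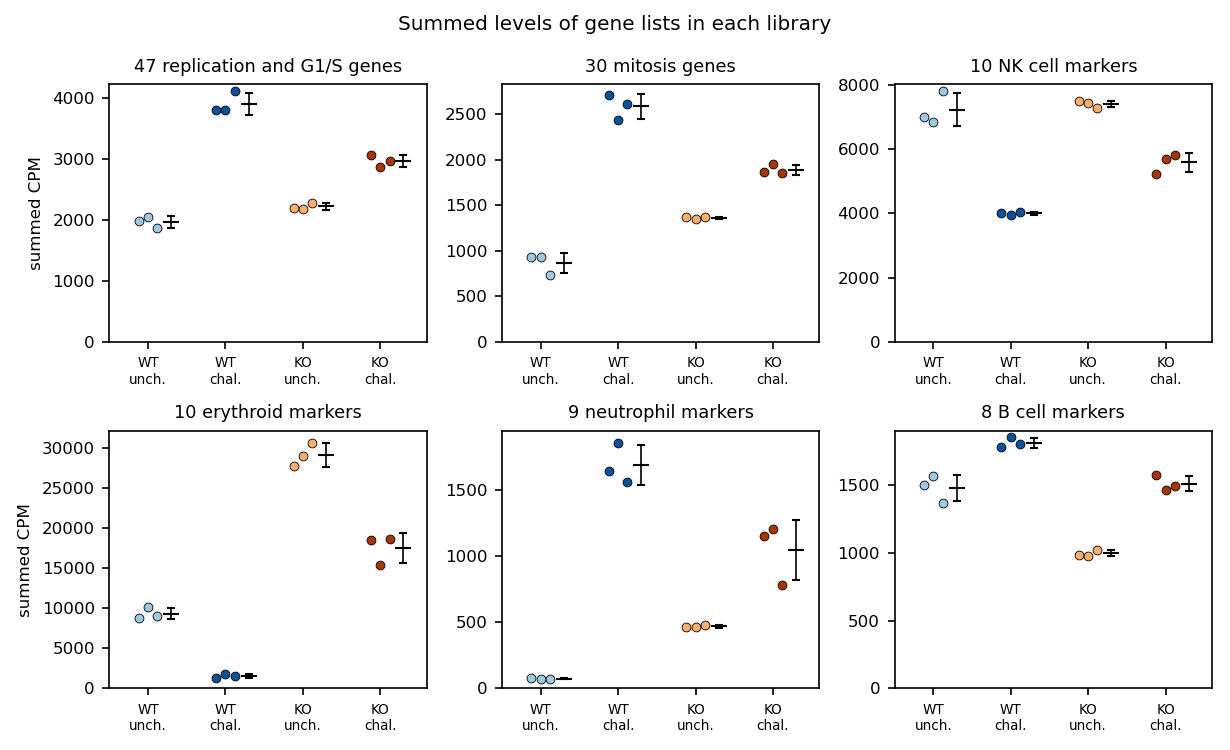
Summed CPM of the 47 replication and G1/S genes, 30 mitosis genes and 4 lists of cell markers, one panel per list. Points are single libraries, the bar beside them is the mean with SD of n = 3, and axes start at 0. The 47 genes sum highest in challenged wild-type libraries (3801 to 4114 CPM), where NK cell markers are lowest (3958 to 4052 CPM).

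Origin licensing genes rose with challenge in wild-type, 4 of 4. Cdc6, which recruits the MCM ring to origins, stood at 11, 13.2 and 10.7 CPM in unchallenged wild-type libraries and at 45.5, 43.7 and 46.6 CPM in challenged ones. The challenged libraries lay above the unchallenged ones without overlap (log2 2.06 ± 0.09 (SE), edgeR adjusted p = 6.01e-11). Cdt1, its partner in loading, rose less, from 47.9, 51.6 and 47.8 CPM to 62.7, 66.5 and 70.6 CPM (log2 0.54 ± 0.09). Orc1, a subunit of the origin recognition complex, was the least abundant of the 47 in unchallenged wild-type libraries per length of exon, at 1.05 CPM per kilobase, and rose by 1.56 ± 0.17 on the log2 scale. Orc6, another subunit, rose by 0.94 ± 0.08.

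The MCM helicase core rose as a complete ring, with 6 of 6 genes called. Their log2 changes lay close together, at 1.08 for Mcm2, 1.35 for Mcm3, 0.80 for Mcm4, 1.4 for Mcm5, 0.88 for Mcm6 and 1.03 for Mcm7. Mcm5 stood at 102, 109 and 91.1 CPM in unchallenged and at 219, 246 and 275 CPM in challenged wild-type libraries. Mcm6 went from 171, 164 and 158 CPM to 275, 275 and 293 CPM. Neither gene overlapped between the groups. Per kilobase of exon the 6 transcripts stood at 13.0 to 35.2 CPM in unchallenged wild-type libraries, with Mcm2 the lowest and Mcm6 the highest. After challenge they stood at 25.6 to 61.8 CPM per kilobase, with Mcm2 again the lowest and Mcm5 the highest.

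Among the 6 genes that activate the helicase, 5 rose, and the range was wide. Mcm10, a scaffold for helicase activation, had the largest log2 change of the 47, at 2.21 ± 0.11 (edgeR adjusted p = 1.69e-10). It stood at 13.1, 9.41 and 10.3 CPM before and at 47.2, 44.7 and 48.9 CPM after challenge, without overlap. Cdc45, a subunit of the active helicase, rose from 11.1, 11.8 and 9.25 CPM to 36.6, 38.4 and 42.0 CPM (log2 1.97 ± 0.10). The 4 GINS genes, which encode a single complex, did not move by like amounts. Gins1 rose by 1.47 ± 0.12 and Gins3 by 1.06 ± 0.09, whereas Gins4 rose by 0.30 ± 0.09 and Gins2 stood at 43.7, 54.9 and 54.6 CPM before and at 51.1, 55.5 and 65.6 CPM after challenge. Those Gins2 values overlap (log2 0.27 ± 0.13, edgeR adjusted p = 0.0749), and the gene was called in 2 alternative fits. The Gins4 call was lost in 2 alternative fits. Exons of Gins2 overlap those of Gse1 on the opposite strand over 2758 bases, and the sources used here do not state the strand of the reads, so the reads of the pair may be mixed.

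All 7 polymerase and primase genes rose. The polymerase epsilon subunit Pole2 had the largest change (log2 1.41 ± 0.10), and Pola1, the catalytic subunit of polymerase alpha, rose by 1.3 ± 0.09. The primase genes Prim1 and Prim2, whose products lay down the RNA primers, rose by 1.15 ± 0.08 and 1.18 ± 0.08. Pola2, the accessory subunit of polymerase alpha, rose by 0.45 ± 0.08, the smallest change of this role.

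Of the clamp, its loader and the single-strand binding protein, 6 of 6 rose. Pcna, the sliding clamp that holds polymerases on DNA, stood at 157, 145 and 141 CPM in unchallenged and at 310, 305 and 315 CPM in challenged wild-type libraries, without overlap (log2 1.17 ± 0.06, edgeR adjusted p = 1.66e-10). The loader subunit Rfc3 rose by 1.41 ± 0.08. Rfc2, a loader subunit too, rose by 0.25 ± 0.07 (edgeR adjusted p = 0.00608), a call lost in 2 alternative fits. Its exons overlap those of Lat2 on the opposite strand over 952 bases. Rpa2, a subunit of the single-strand binding protein, rose by 0.24 ± 0.09 (edgeR adjusted p = 0.0261), and 7 alternative fits did not call it (adjusted p of 0.0552 to 0.184).

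Lig1, the ligase that joins Okazaki fragments, had the largest change among the genes of lagging-strand maturation and uracil repair. It went from 56.4, 53.8 and 48.9 CPM to 134, 128 and 141 CPM (log2 1.44 ± 0.08). Fen1, which trims the flaps between fragments, rose by 1.31 ± 0.08, and Ung, which removes uracil from DNA, by 0.60 ± 0.12. Of the 2422 exon bases of Fen1, 1909 overlap an exon of Gm10143 on the opposite strand, so their reads may be mixed. The levels of Lig1 did not overlap.

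Nucleotide supply genes rose, 5 of 5. Rrm2, the S phase subunit of ribonucleotide reductase, stood at 36.4, 36.6 and 26.4 CPM in unchallenged and at 134, 132 and 134 CPM in challenged wild-type libraries. Replicate 4 was the lowest of the unchallenged libraries, and the groups did not overlap (log2 2.12 ± 0.09, edgeR adjusted p = 3.53e-11). Its partner Rrm1 rose by 1.31 ± 0.06, Dut, which clears dUTP, by 1.41 ± 0.10, and the thymidylate-producing enzymes Tk1 and Tyms by 0.94 ± 0.10 and 0.84 ± 0.07.

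Regulators of G1/S entry rose unequally. The activator E2f1 went from 10.1, 12 and 9.04 CPM to 27.4, 28.7 and 30.1 CPM (log2 1.57 ± 0.10), and E2f8, an atypical E2F that represses its targets, from 19.4, 22.7 and 17.7 CPM to 53.4, 47.5 and 52.3 CPM (log2 1.46 ± 0.09). Neither overlapped. E2f2, another activator, stood at 42.3, 49.2 and 41.6 CPM before and at 45.2, 48.3 and 47.5 CPM after challenge. Its values overlap, and its call (log2 0.19 ± 0.07, edgeR adjusted p = 0.0351) was lost in 10 alternative fits (adjusted p of 0.0531 to 0.344). Ccne1 and Ccne2, the E cyclins that drive S phase entry, rose by 1.31 ± 0.12 and 1.74 ± 0.31. Ccne2 stood at 7.31, 4.3 and 5.13 CPM before and at 20.8, 17.8 and 13.2 CPM after challenge, without overlap, and its exons overlap those of Ints8 on the opposite strand over 474 bases. Cdc25a, the phosphatase that activates the cyclin-dependent kinases, rose by 1.04 ± 0.08.

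Genes that rebuild chromatin behind the fork had the highest median change of the 9 roles, at 1.71 on the log2 scale over 4 genes. Uhrf1, which carries DNA methylation over to the new strand, went from 44.0, 48.3 and 35.1 CPM to 155, 161 and 177 CPM (log2 2.06 ± 0.10). The histone chaperone Asf1b rose from 17.0, 19.3 and 13.0 CPM to 53.3, 48.4 and 55.3 CPM (log2 1.77 ± 0.11). Chaf1a and Chaf1b, subunits of chromatin assembly factor 1, rose by 1.64 ± 0.10 and 0.80 ± 0.09, and Chaf1a shares 2542 bases of exon with Ubxn6 on the opposite strand. In all, 15 of the 47 genes overlap exons of another gene on the opposite strand.

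**Figure D2:**
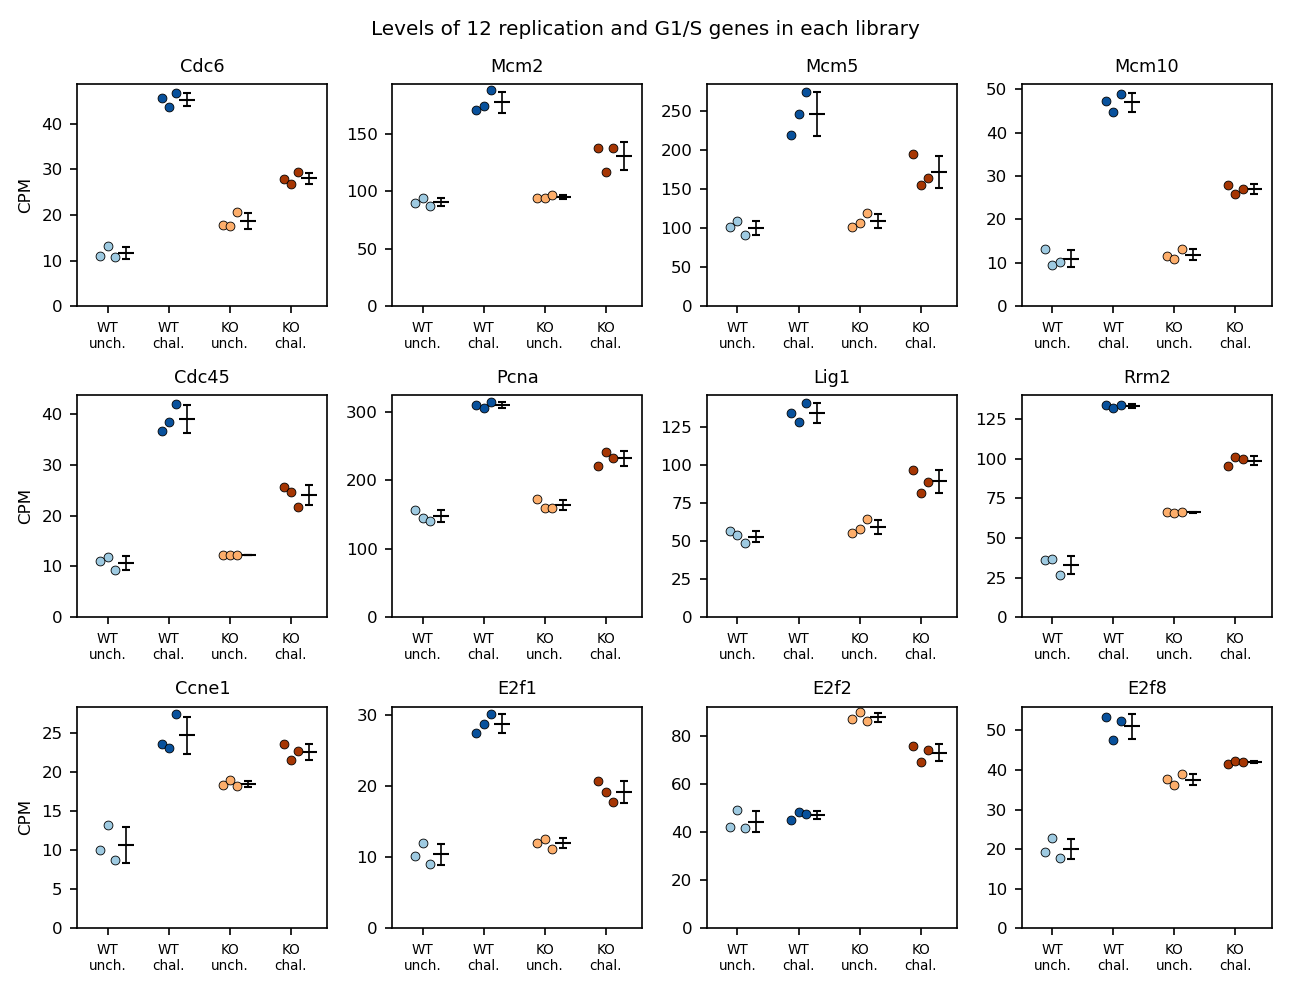
CPM of 12 of the 47 genes in each library, by group (WT, wild-type, KO, knockout). Points are single libraries, the bar beside them is the mean with SD of n = 3, and each axis starts at 0. Cdc6 goes from 10.7 to 13.2 CPM in unchallenged wild-type to 43.7 to 46.6 CPM in challenged wild-type and stops at 26.8 to 29.3 CPM in challenged knockout libraries, while E2f2 is highest in unchallenged knockout libraries (86.2 to 89.7 CPM).

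The start sites of these genes were examined because most of the 47 rose together. The RefSeq promoter table (GRCm38.p6) held 300 bases, 250 before and 50 after the start site, for 39 of the 47 genes in 45 windows. It held none for Ccne2, Gins1, Gins2, Gins4, Mcm4, Pole, Prim2 and Rfc2. The E2F words searched were TTTCCCGC, TTTCGCGC, TTTGCCGC and TTTGGCGC on both strands, and words may overlap. Shown here are the 6 named genes with a word whose challenge responses differed between the genotypes at the smallest p-values, and Rrm2, the named gene with the smallest such p-value and no word, for contrast. Capitals mark the E2F words, each sequence is the window 5′ to 3′ on the strand of the gene, and Mcm6 carries a pair of overlapping words on opposite strands.
Cdc6: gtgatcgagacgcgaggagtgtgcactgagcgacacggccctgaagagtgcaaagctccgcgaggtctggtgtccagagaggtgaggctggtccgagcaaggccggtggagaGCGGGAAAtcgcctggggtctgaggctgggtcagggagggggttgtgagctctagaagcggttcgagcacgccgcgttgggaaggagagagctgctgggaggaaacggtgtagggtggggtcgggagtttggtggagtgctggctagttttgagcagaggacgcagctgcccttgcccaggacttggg
Uhrf1: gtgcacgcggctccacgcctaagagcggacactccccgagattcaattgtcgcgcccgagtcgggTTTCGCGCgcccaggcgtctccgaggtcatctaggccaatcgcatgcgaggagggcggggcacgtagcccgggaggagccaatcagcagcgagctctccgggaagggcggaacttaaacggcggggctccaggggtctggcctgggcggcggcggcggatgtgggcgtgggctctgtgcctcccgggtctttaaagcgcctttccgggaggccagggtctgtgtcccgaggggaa
Lig1: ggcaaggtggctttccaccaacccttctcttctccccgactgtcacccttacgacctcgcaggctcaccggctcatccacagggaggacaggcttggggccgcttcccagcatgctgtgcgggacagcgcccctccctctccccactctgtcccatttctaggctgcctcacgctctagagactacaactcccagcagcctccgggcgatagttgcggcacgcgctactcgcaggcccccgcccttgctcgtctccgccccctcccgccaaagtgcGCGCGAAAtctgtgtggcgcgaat
Rfc3: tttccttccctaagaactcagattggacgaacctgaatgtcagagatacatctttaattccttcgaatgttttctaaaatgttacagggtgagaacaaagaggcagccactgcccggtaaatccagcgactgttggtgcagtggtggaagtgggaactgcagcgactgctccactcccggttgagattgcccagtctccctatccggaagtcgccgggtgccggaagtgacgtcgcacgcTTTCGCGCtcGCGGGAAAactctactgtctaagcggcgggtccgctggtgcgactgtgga
Mcm3: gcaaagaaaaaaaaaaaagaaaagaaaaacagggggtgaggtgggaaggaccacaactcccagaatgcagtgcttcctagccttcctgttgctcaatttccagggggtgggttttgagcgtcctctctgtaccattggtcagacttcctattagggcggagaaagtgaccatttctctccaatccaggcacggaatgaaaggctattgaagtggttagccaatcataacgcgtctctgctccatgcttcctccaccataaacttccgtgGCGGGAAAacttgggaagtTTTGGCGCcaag
Mcm6: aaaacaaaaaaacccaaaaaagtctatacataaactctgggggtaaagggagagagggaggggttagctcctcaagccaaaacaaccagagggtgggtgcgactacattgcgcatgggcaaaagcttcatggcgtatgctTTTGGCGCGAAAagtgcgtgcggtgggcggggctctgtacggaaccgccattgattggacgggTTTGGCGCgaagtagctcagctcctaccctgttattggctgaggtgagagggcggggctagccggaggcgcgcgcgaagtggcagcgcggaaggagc
Rrm2: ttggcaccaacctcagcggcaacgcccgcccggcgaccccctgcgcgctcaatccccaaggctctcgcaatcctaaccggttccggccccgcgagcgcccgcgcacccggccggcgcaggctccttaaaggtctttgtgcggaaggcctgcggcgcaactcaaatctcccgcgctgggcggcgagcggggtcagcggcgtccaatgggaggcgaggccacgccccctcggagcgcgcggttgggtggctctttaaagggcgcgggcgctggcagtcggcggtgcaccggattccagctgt

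These windows lie at chr11:98907901-98908200 (plus strand) for Cdc6, chr17:56304063-56304362 (plus) for Uhrf1, chr7:13278576-13278875 (plus) for Lig1, chr5:151651159-151651458 (minus) for Rfc3, chr1:20820263-20820562 (minus) for Mcm3, chr1:128359656-128359955 (minus) for Mcm6 and chr12:24708004-24708303 (plus) for Rrm2. Counted from the start site, the word of Cdc6 begins at position -138 and that of Uhrf1 at -185, upstream of it. The words of Rfc3 begin at -10 and 0, at the start itself, and those of Mcm3 at 19 and 38, like that of Lig1 at 26, within the transcript. In Mcm6 they begin at -110, -106 and -47. Uhrf1 has 2 windows and Lig1 has 3, and for each gene the only window with a word is shown.

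An E2F word was found in 16 of 45 windows of the 47 genes (35.6%). The share was 3.65% over the 14098 windows of all tested genes, 4.45% over those of genes that rose in wild-type and 2.26% over all 32851 windows of the table. The CCAAT box (CCAAT on either strand) was found in 57.8% of windows of the 47 genes and 37.5% of those of all tested genes (37.4% of the whole table). The CHR element of genes expressed late in the cycle (TTTGAA on either strand) was found in 15.6% and 13.0% (17.9% of the whole table). For 30 mitosis genes the pattern was another, with E2F words in 1 of 27 windows (3.70%), CCAAT in 85.2% and CHR in 77.8%. A match describes the letters of the window and does not show that a factor binds there.

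The 16 genes with an E2F word had a median log2 change of 1.33 in wild-type and 0.57 in knockout, and the 23 genes with a window and no word had medians of 1.17 and 0.45. The medians of the difference between the genotypes in that response were -0.72 and -0.75. Of the genes that rose by about 2 on the log2 scale, Cdc6 has a word in its only window and Uhrf1 in 1 of its 2 windows. Mcm10, Rrm2 and Cdc45 have none. E2f2, with the smallest change, has one in 1 of its 2 windows.

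**Figure D3:**
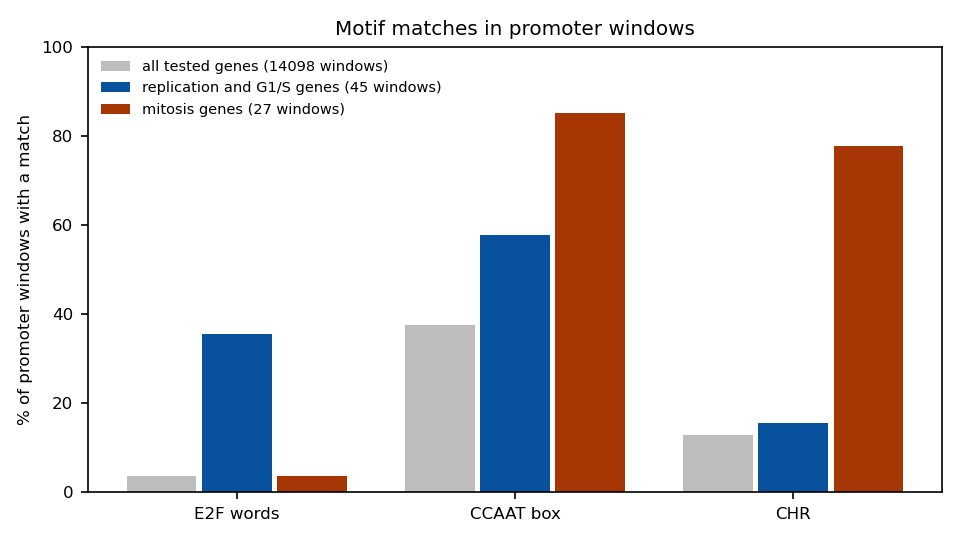
Share of promoter windows (300 bases around the start site) that hold an E2F word, a CCAAT box or a CHR element, in percent. Grey bars stand for all tested genes, blue for the replication and G1/S genes and brown for mitosis genes. E2F words are in 35.6% of windows of the replication and G1/S genes, against 3.65% for all tested genes and 3.70% for mitosis genes.

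In knockout mice the challenge raised fewer of the 47 genes, and by less. Of them 35 rose, 1 fell and 11 did not pass, where 15.6% of all tested genes rose and 11.5% fell. The median log2 change was 0.46, with a range of -0.27 to 1.17. A rise of at least 2-fold was called for 2 of the 47, Mcm10 (log2 1.17 ± 0.11) and Gins1 (log2 1.07 ± 0.12), and for 4.39% of all tested genes. For 38 genes the challenged libraries lay above all unchallenged ones, which held for 20.9% of all tested genes. Leaving out challenged knockout replicate 3, or both libraries named above, left the count of rises at 35. The comparison in wild-type shares no library with this one.

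Cdc6 stood at 17.7, 17.5 and 20.6 CPM in unchallenged knockout and at 27.9, 26.8 and 29.3 CPM after challenge (log2 0.58 ± 0.09, edgeR adjusted p = 0.000242). Pcna stood at 172, 160 and 159 CPM and then at 221, 242 and 233 CPM (log2 0.49 ± 0.06). Mcm5 stood at 102, 107 and 119 CPM and then at 195, 156 and 164 CPM (log2 0.64 ± 0.10). None of these overlapped between unchallenged and challenged knockout libraries, and all challenged knockout values lay below those of challenged wild-type libraries. The MCM core rose in full, 6 of 6, by 0.37 to 0.64 on the log2 scale.

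Of the regulators of G1/S entry, 2 of 6 rose in the knockout, E2f1 (log2 0.67 ± 0.10) and Cdc25a (log2 0.42 ± 0.08). E2f2 fell, from 87.0, 89.7 and 86.2 CPM to 75.6, 69.0 and 74.2 CPM (log2 -0.27 ± 0.07, edgeR adjusted p = 0.00922), and it was the single gene of the 47 to fall in either genotype. E2f8 stood at 37.8, 36.1 and 38.9 CPM and then at 41.6, 42.2 and 42.1 CPM. The challenged libraries lay higher without overlap, but the change did not pass (log2 0.15 ± 0.08, edgeR adjusted p = 0.207). The cyclin genes Ccne1 (log2 0.28 ± 0.12, adjusted p = 0.0966) and Ccne2 (log2 0.63 ± 0.30, adjusted p = 0.154) did not pass by edgeR either. Ccne1 was called in 2 alternative fits. The remaining genes without a call were Cdt1 (log2 0.14, called in 1 alternative fit), Gins2 (0.09), Gins4 (0.05), Pold1 (0.16), Pola2 (0.22, called in 4), Rfc2 (-0.04), Rpa2 (-0.02) and Tk1 (0.19).

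The difference between the responses was tested directly, as the knockout response minus the wild-type response. It was negative for 47 of 47 genes. The same held for 8275 of the 16694 tested genes, and for 5201 of the 5411 genes that rose in wild-type. The difference was called lower for 40 of the 47, with 0 called higher, where 18.5% of all tested genes were called lower and 16.7% higher. Its median was -0.68 on the log2 scale, with a range of -1.54 to -0.13. A difference of at least 2-fold was called for 8 of the 47 and for 7.1% of all tested genes. Without unchallenged wild-type replicate 4 it was called for 37 genes, without challenged knockout replicate 3 for 38 and without both for 36. The 7 genes without a call were Gins1, Gins2, Gins4, Pola2, Rpa2, Ung and Ccne2. Of these, Ccne2 (log2 -1.11 ± 0.43, edgeR adjusted p = 0.0702) was called in 5 alternative fits and Rpa2 in 1. The calls of Rfc2 and Pold1 were lost in 10 and 9.

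The largest differences were those of Rrm2 (log2 -1.54 ± 0.13, edgeR adjusted p = 3.27e-07) and Cdc6 (log2 -1.48 ± 0.13, edgeR adjusted p = 6.63e-07). Rrm2 rose from 66.7, 65.6 and 66.2 CPM to 95.5, 101 and 100 CPM in knockout, a log2 change of 0.57 ± 0.09. Asf1b (-1.39 ± 0.15), E2f8 (-1.31 ± 0.12), Uhrf1 (-1.21 ± 0.13), Mcm10 (-1.04 ± 0.16) and Ccne1 (-1.03 ± 0.17) followed on the log2 scale among the genes called. For Cdc6, Rrm2, Asf1b, E2f8, Ccne1 and Uhrf1, part of the difference lies in the unchallenged libraries, where the knockout stood higher. For Mcm10 the unchallenged levels were 13.1, 9.41 and 10.3 CPM in wild-type and 11.5, 10.9 and 13.3 CPM in knockout, which overlap, and the challenged knockout libraries stood at 28, 25.9 and 27.1 CPM.

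The smaller response in the knockout was shared by many other genes. Of the 5411 genes that rose in wild-type, 55.3% had a response called lower in the knockout, and 40 of the 46 genes here did. In the knockout 43.5% of those 5411 genes rose, against 35 of the 46 genes here. Over the 46 genes that rose, the log2 change in knockout was a median of 41.2% of that in wild-type, with quartiles of 28.2% and 47.1%. Over all genes that rose in wild-type the median was 35.9%, with quartiles of 15.4% and 54.8%. These genes were picked by their wild-type response, which also enters the difference and the percentage. That choice by itself lowers both, by an amount that was not measured. By role, the median percentage was 45.0% for the MCM core, 49.0% for helicase activation and 28.7% for G1/S control. Over the 47 genes the changes in the 2 genotypes correlated at a Pearson r of 0.804 and a Spearman rho of 0.78, given as a description across genes that share their libraries.

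**Figure D4:**
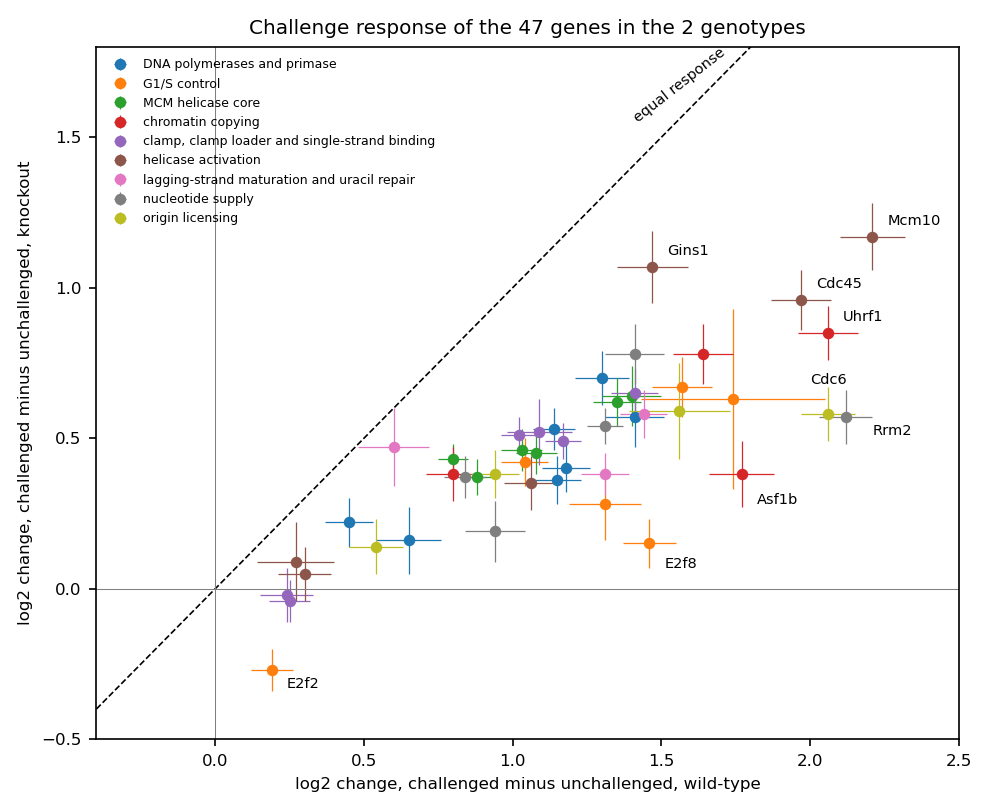
Log2 change with challenge in wild-type (x axis) and in knockout (y axis) for the 47 genes, coloured by role, with bars for the standard error of each. All 47 points lie below the dashed line of equal response, from E2f2 (0.19 and -0.27) to Mcm10 (2.21 and 1.17). Of all 5411 genes that rose in wild-type, 5201 had a smaller response in knockout too.

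Without challenge, 11 of the 47 genes were higher in knockout than in wild-type libraries and 0 were lower, where 6.64% of all tested genes were higher and 5.07% lower. The median log2 difference was 0.13, with a range of -0.08 to 1.02. For 17 genes the knockout libraries lay above all wild-type ones, which held for 14.4% of all tested genes. The unchallenged wild-type libraries also enter the wild-type challenge comparison and the test of the responses above. Without unchallenged wild-type replicate 4 the count was 8, without knockout replicate 4 it was 8 and without both of the libraries named above it was 8.

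By role, 3 of the 11 were G1/S regulators, 3 supply nucleotides, 2 license origins, 2 copy chromatin and 1 acts in lagging-strand maturation. E2f2 stood at 87.0, 89.7 and 86.2 CPM in knockout against 42.3, 49.2 and 41.6 CPM in wild-type libraries (log2 1.0 ± 0.07, edgeR adjusted p = 2.32e-07), and Rrm2 at 66.7, 65.6 and 66.2 CPM against 36.4, 36.6 and 26.4 CPM (log2 1.02 ± 0.09, edgeR adjusted p = 2.2e-06). Neither overlapped. E2f8 (log2 0.93 ± 0.09), Ccne1 (0.81 ± 0.12), Cdc6 (0.70 ± 0.10) and Asf1b (0.69 ± 0.11) were higher too. Ccne1 stood at 18.4, 19.0 and 18.2 CPM against 10.1, 13.2 and 8.79 CPM, without overlap. The others were Tk1 (0.45 ± 0.10), Rrm1 (0.31 ± 0.06), Orc1 (0.56 ± 0.17), Uhrf1 (0.33 ± 0.10) and Fen1 (0.25 ± 0.08). Among them the calls of Orc1, Fen1 and Uhrf1 were lost in 12, 10 and 8 alternative fits.

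The core machinery did not pass in this comparison. None of Mcm2 to Mcm7 was called, and their log2 differences ran from -0.02 (Mcm4, edgeR adjusted p = 0.876) to 0.14 (Mcm5, edgeR adjusted p = 0.484). No polymerase, primase, clamp or loader gene was called. Pcna, at 172, 160 and 159 CPM against 157, 145 and 141 CPM, was higher in every knockout library (log2 0.17 ± 0.06, edgeR adjusted p = 0.0842) and was called in 3 alternative fits. The groups that differed here also differed in markers of other cells and in Xist, given above. Erythroid markers, the transcription factor Klf1 among them, were higher in unchallenged knockout for 10 of 10 genes (median log2 difference 1.70). Neutrophil markers were higher for 9 of 9 (3.01), myeloid progenitor markers for 5 of 6 (2.76, with 1 lower) and macrophage and monocyte markers for 4 of 8 (0.45). B cell markers were lower for 8 of 8 (-0.55), T cell markers for 6 of 9 (-0.60) and germinal centre and plasma cell markers for 3 of 9 (-0.19). Of the 10 NK cell markers, 0 were called. The part of these markers and of Xist in the results was not tested.

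**Figure D5:**
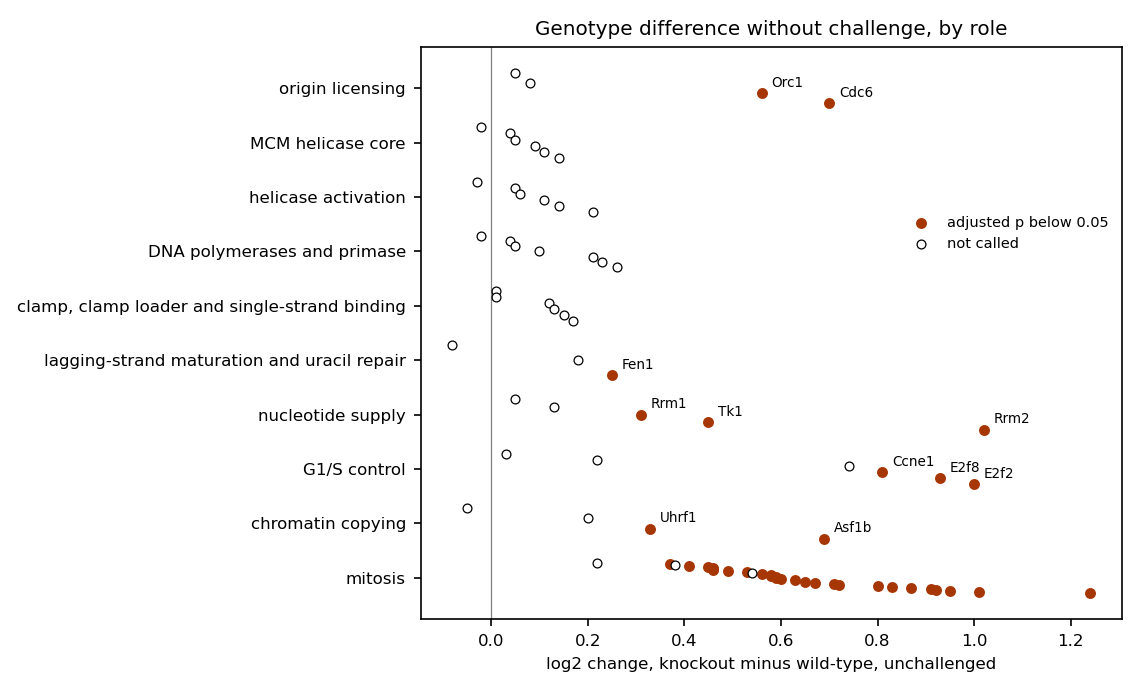
Log2 difference between unchallenged knockout and unchallenged wild-type libraries for the 47 genes, by role, and for 30 mitosis genes. Filled points passed at an adjusted p below 0.05 and open points did not. Filled points among the 47 are 11, from Fen1 (0.25) to Rrm2 (1.02), with none in the MCM core.

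After challenge most of the 47 genes were lower in the knockout. Compared with challenged wild-type libraries, 39 of the 47 genes were lower in challenged knockout libraries and 1 was higher, where 25.9% of all tested genes were lower and 22.7% higher. The median log2 difference was -0.51, with a range of -0.89 to 0.54. For 33 genes all knockout libraries lay below all wild-type ones, which held for 22.3% of all tested genes. Without challenged knockout replicate 3 the count of lower genes was 37, also when unchallenged wild-type replicate 4 was left out with it. In mean CPM, 45 of 47 genes stood in challenged knockout libraries between unchallenged and challenged wild-type. This position was not counted over all tested genes, so it does not set the 47 apart.

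Mcm10 had the largest difference (log2 -0.89 ± 0.10, edgeR adjusted p = 4.19e-06), followed by Uhrf1 (-0.88 ± 0.09), Cdc6 (-0.79 ± 0.09) and Cdc45 (-0.79 ± 0.09). Uhrf1 stood at 102, 92.4 and 91.8 CPM in challenged knockout against 155, 161 and 177 CPM in challenged wild-type libraries. The groups did not overlap for Uhrf1 or for Cdc6. All 6 MCM core genes were lower, by -0.40 (Mcm4) to -0.68 (Mcm3). E2f2 was the exception, at 75.6, 69.0 and 74.2 CPM in knockout against 45.2, 48.3 and 47.5 CPM in wild-type libraries (log2 0.54 ± 0.07, edgeR adjusted p = 1.73e-05). Of the 11 genes higher in unchallenged knockout libraries, 9 were lower in challenged knockout libraries, E2f2 stayed higher, and Ccne1 did not pass (log2 -0.23 ± 0.11, edgeR adjusted p = 0.12). The calls of Orc1 and Tk1 in the challenged comparison were lost in 8 alternative fits each, and that of Pola2 in 5.

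Other genes of the pathway were counted from lists that hold none of the 47. Of 42 further replication fork and origin genes, 35 rose and 3 fell with challenge in wild-type (median log2 change 0.66), and 23 rose and 0 fell in knockout (median 0.27). The response was called lower in the knockout for 24 of them and higher for 1. Clspn, an adaptor of the fork checkpoint, rose from 14.2 ± 1.6 to 45.6 ± 3.5 CPM (mean ± SD, n = 3) in wild-type (log2 1.79 ± 0.09, edgeR adjusted p = 2.82e-10) and from 20.1 ± 1.5 to 31.5 ± 1.5 CPM in knockout. The histone chaperone Nasp rose in wild-type by 1.02 ± 0.06. The 3 genes that fell in wild-type were Rrm2b (log2 -0.96 ± 0.16), the p53-inducible counterpart of Rrm2, and the origin recognition subunits Orc5 (-0.37 ± 0.10) and Orc3 (-0.25 ± 0.09).

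Of 26 further G1/S regulators, 18 rose and 5 fell in wild-type (median log2 change 0.43), and 12 rose and 3 fell in knockout (median 0.23). Cdkn1a, which encodes the cyclin-dependent kinase inhibitor p21, had the smallest p-value. It rose from 5.01 ± 0.74 to 90.1 ± 10 CPM (mean ± SD, n = 3) in wild-type (log2 4.27 ± 0.16, edgeR adjusted p = 1.03e-11) and from 6.03 ± 0.95 to 19.4 ± 3.6 CPM in knockout (log2 1.67 ± 0.16). The responses of Cdkn1a differed by -2.60 ± 0.22 on the log2 scale (edgeR adjusted p = 6.32e-07). Cdkn1b, which encodes the inhibitor p27, fell from 179 ± 11 to 106 ± 10 CPM in wild-type (log2 -0.66 ± 0.13) and did not pass in knockout (log2 -0.09 ± 0.13, edgeR adjusted p = 0.652). Rbl2, a relative of the retinoblastoma protein found in resting cells, fell in both genotypes, by -0.44 ± 0.05 and -0.21 ± 0.05.

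The partners of E2F factors went opposite ways in wild-type. Tfdp1 rose by 1.16 ± 0.07 and Tfdp2 fell by 1.53 on the log2 scale, from 72.7 ± 4.9 to 23.4 ± 1.3 CPM (mean ± SD, n = 3). Myc, a growth factor-induced regulator, rose by 1.16 ± 0.07. Of the D cyclins, which act before cyclin E, Ccnd1 rose by 1.03 ± 0.08, Ccnd2 by 0.37 ± 0.05 and Ccnd3 by 0.36 ± 0.10. In knockout Ccnd1 rose by 0.44 ± 0.08, and Ccnd2 (edgeR adjusted p = 0.966) and Ccnd3 (edgeR adjusted p = 0.144) did not pass.

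The mitosis list, 30 genes, was set beside the 47 because most of its genes, though not all, act in a later part of the cycle. All 30 rose in wild-type (median log2 change 1.77), among them Top2a (2.19 ± 0.10), Tpx2 (2.15 ± 0.10) and Birc5 (2.04 ± 0.10), and 27 rose in knockout (median 0.59). Their summed level went from 738 to 928 CPM in unchallenged to 2435 to 2711 CPM in challenged wild-type libraries, and from 1346 to 1367 CPM to 1853 to 1950 CPM in knockout. Without challenge, 27 of 30 mitosis genes were higher in knockout than in wild-type libraries, with a median log2 difference of 0.59. For the 47 replication and G1/S genes the same values were 11 of 47 and 0.13. After challenge 29 of 30 mitosis genes were lower in knockout libraries (median -0.55), and the response was called lower for 30 of 30 (median -1.21), at least 2-fold for 26.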

How the data were processed

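RNA of 12 libraries of spleen NK cells was measured, 3 in each of 4 groups, with polyA selection and the Illumina TruSeq RNA kit per the labels' protocols. The table deposited by the authors holds counts per gene and library without normalization. The submitters' processing notes name the GRCm38 genome and the tools RSEM 1.3.0, Bowtie2 2.2.8, Trim Galore 0.4.1 and bcl2fastq. RSEM gives estimated counts, whereas the deposited counts are whole numbers. The sources used here do not state the rounding, the strand setting or the annotation release. Library totals were 17624530 to 23665679 counts, and reads carry no molecular identifiers.

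Genes were filtered with filterByExpr, library sizes were scaled by TMM (factors of 0.949 to 1.036), and edgeR 4.0.16 (under R 4.3.3) fitted the 12 libraries together, with 1 coefficient per group and its robust quasi-likelihood F test. Benjamini-Hochberg adjustment ran over the 16694 tested genes within each of 5 contrasts. Every adjusted p comes from that test unless another tool is named. The standard error was taken from the log2 fold change and its F statistic, and CPM from column totals. The fit was tested on simulated data. DESeq2 1.42.0, other scalings, no count filter, a replicate block, a 2-fold threshold and left-out libraries were alternatives. The 2-fold threshold was applied to the main fit, so it is not among the alternative fits counted for single genes. Exon lengths, positions and overlaps came from GENCODE vM21 (GRCm38), promoters from RefSeq (GRCm38.p6).

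The genes, lists, tests and rules were chosen with earlier results of these data known. The text names, in each role, the genes with the largest and smallest change in wild-type, the 8 with the smallest p for the difference between the responses, those not called in wild-type, and a fixed set including Mcm2 to Mcm7, Pcna, Cdc6, Cdt1, the E cyclins, E2f1, E2f2, E2f8, Rrm2, Tk1 and Tyms. From the other pathway lists it names the 3 smallest p-values per direction in wild-type and a fixed set of inhibitors, D cyclins and Myc. One gene under this rule is not reported here. Other genes of the 47 named with values complete a role, a count or a range and were chosen after their values were seen. The design text speaks of biological replicates but does not tie each library to its own animal, so p-values may measure only the spread between these samples. Libraries within a group differed by 3.51 to 26.7 times the counting noise, so none was a repeat deposit.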

Additional observations from a re-analysis of the deposited data

Results flagged for a closer look

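The challenge response differed between the genotypes for 40 of the 47 genes by edgeR's test of the difference itself, with the lower value in knockout for each of the 40. On the log2 scale, as the knockout response minus the wild-type response, the largest differences were -1.54 for Rrm2, -1.48 for Cdc6, -1.39 for Asf1b, -1.31 for E2f8 and -1.21 for Uhrf1. Mcm10 differed by -1.04, Ccne1 by -1.03, Fen1 by -0.93, E2f1 by -0.90 and Lig1 by -0.86. In the helicase core the values were -0.62 for Mcm2, -0.73 for Mcm3, -0.38 for Mcm4, -0.76 for Mcm5, -0.51 for Mcm6 and -0.57 for Mcm7. Further values were -0.84 for Pole2, -0.77 for Rrm1, -0.76 for Rfc3, -0.75 for Tk1, -0.68 for Pcna, -0.46 for Tyms, -0.46 for E2f2, -0.42 for Chaf1b and -0.41 for Cdt1. Unchallenged knockout libraries held 0.362 to 1.08 CPM of Xist and challenged ones 526 to 1027 CPM, so the response in knockout cannot be told apart from that shift.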

How the results depend on the processing

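Over the alternatives the number of the 47 genes called stayed at 42 to 47 for challenge in wild-type, 33 to 38 in knockout, 8 to 12 and 37 to 41 for genotype without and after challenge, and 36 to 41 for the difference between the responses, apart from the 2-fold threshold. With it the calls were 32, 2 (2 higher, 0 lower), 2, 0 (0 higher, 0 lower) and 8 in the same order. DESeq2 gave 46, 36, 12, 41 and 41. The replicate block gave 46, 33, 9, 40 and 40. Same-numbered residuals correlated at -0.317 to 0.249, which does not settle whether the libraries are paired. The titles also carry another numbering of the unchallenged libraries, which was not tried. Leaving out unchallenged wild-type replicate 4 and challenged knockout replicate 3 together, an alternative chosen after seeing the data, gave 44, 36, 8, 38 and 36.

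Of 3099 alternative values for 149 results of genes named under the rule above, 9 changed sign, none of them of a call. The genotype comparison without challenge entered this count only for genes called in it. Genes of the other pathway lists entered it only for challenge in wild-type. Sign changes were therefore not counted for Mcm4 without challenge (log2 -0.02) or for the difference in response of Cdkn1a, among others. Gins2 in the challenged genotype comparison (log2 -0.07) became 0.00 with upper-quartile scaling, 0.02 with library totals, and with single libraries left out ran from -0.15 to 0.05, at 0.03 without challenged wild-type replicate 3 and 0.05 without challenged knockout replicate 2. Rpa2 with challenge in knockout (-0.02) became 0.00 with haemoglobin and immunoglobulin genes left out, 0.03 with the replicate block, 0.04 without unchallenged knockout replicate 4 and 0.07 without challenged knockout replicate 2. Ung in the difference between the responses (-0.13) ran from -0.23 to 0.00 with single libraries left out, the latter without challenged knockout replicate 2. The cause was not tested. The median of all genes moved to -0.12 with upper-quartile scaling and -0.11 with library totals in the wild-type comparison, and to 0.12 with library totals in the difference between the responses. Over all genes, the 1915 that fell with challenge within the knockout became 1185 with the replicate block, and the 846 lower in unchallenged knockout than in unchallenged wild-type became 550, 504 and 548 without unchallenged wild-type replicate 2 or 3 or knockout replicate 3.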
